A study of Homo sapiens with 15 samples.

Results

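Gene expression was compared between HCT116 tumors that had received the K278R mutant of MOAP-1 and tumors that had received RASSF1A. The samples were chosen by their labels, as the 3 tumors labeled K278R and the 3 labeled 1A, and make up 6 of the 15 tumors of the series. HCT116 is a human colon cancer cell line, and each tumor was a xenograft grown in an athymic nude mouse, excised at day 35 and hybridized to 1 single-color Agilent whole-genome array. The other 9 tumors had received wild type MOAP-1, the K264R mutant, or the empty vector, with 3 tumors each. The series put RASSF1A beside the MOAP-1 constructs, and the comparison of K278R with RASSF1A asks how far the transcriptomes of these tumors differed.

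The K278R tumors came from cells transfected with Myc-tagged MOAP-1 carrying a lysine to arginine change, and the RASSF1A tumors from cells transfected with HA-tagged wild type RASSF1A in the pCDNA3 vector. All constructs were put into the same parental line, which expresses MOAP-1 and RASSF1A of its own, so the control tumors carry these genes too. The transfection was transient and used pools of cells, so part of the cells of a tumor had received a construct and its expression at day 35 was not given in the sources used here. Host mouse cells form part of a xenograft. Which tumors shared a mouse was not given either, so the p values describe the spread between these tumors.

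MOAP-1 carries a motif like BH3. It binds the cell death effector BAX and helps it to change shape and enter the mitochondrial membrane. RASSF1A is a scaffold protein that is silenced in many cancers. After a death receptor such as the TNF receptor is engaged, RASSF1A binds MOAP-1 and thereby links the receptor to BAX. RASSF1A also binds microtubules and the Hippo kinases. Lysine is the residue to which ubiquitin is attached, and arginine keeps its charge but cannot accept ubiquitin.

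Signals are given as log2 of the processed intensity with the 75th percentile of each array set to 0, and a change is the K278R mean minus the RASSF1A mean on that scale. A gene was read at its brightest probe, and was called where limma gave an adjusted p below 0.05 and the change was at least 1.5-fold. Of 43118 spots other than controls, 34127 probes were formed, and 30279 of these passed the background flag in each K278R tumor or in each RASSF1A tumor. They stand for 17887 genes with a RefSeq name. On the 6 arrays, 88.4% to 93.2% of the spots were well above background, the 75th percentile lay between 496.3 and 1152, and no spot was saturated. RASSF1A tumors 1 and 2 were alone on a slide, and their scan day was later than that of all other arrays. RASSF1A tumor 3 was on a slide with the vector tumors, and the K278R tumors were on another slide. No slide held both groups, so slide and construct cannot be told apart. Among the 2617 called genes with a value on every array, RASSF1A tumor 3 was the RASSF1A tumor nearest to the K278R mean in 2143 (81.9%). Values within the scan day (the 3 K278R tumors against RASSF1A tumor 3 alone) are therefore given for most lists and fully described genes. There the lone tumor is assumed to vary like the other groups.

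K278R tumors differed from RASSF1A tumors at 2619 genes, 14.6% of those tested. Some transcripts of the proteasome, of glycolysis, and of the BCL2 family were among the higher ones, at list medians of 0.01, -0.08, and 0.10. Some histone H4 genes and small noncoding RNAs were among the lower ones. Higher in K278R were 1871 genes (10.5% of 17887) and lower were 748 (4.18%). With the median of each array set to 0, which moves the median change of all probes by -0.15, 1416 genes were higher and 1510 lower, so the share of higher calls went from 71.4% to 48.4%. Quantile normalization gave 62.3%. Within the scan day, 265 genes were higher (1.48%) and 247 lower (1.38%), and 456 of the 2619 called genes were called in the same direction there. The change within the day had the same sign in 2616 of the 2619 genes and was 0.70 times as large in the median, with RASSF1A tumor 3 part of both values. All 3 K278R tumors lay above all 3 RASSF1A tumors in 3832 genes (21.4%) and below them in 3299 (18.4%), and the groups were apart in 2523 of the 2619 called genes. A change of at least 4-fold was seen in 72 of the genes called higher and 32 of those called lower. In bulk tumors, fewer cells of a type and less RNA per cell cannot be told apart.

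The changes also ran with the level of the gene. In the dimmest eighth of the genes the median change was 0.15, and in the brightest eighth it was -0.23. In the brightest eighth 3.71% of the genes were higher and 11.3% were lower, against 9.44% and 2.42% in the dimmest. How much this trend adds to the change of any 1 gene was not tested.

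**Figure D1:**
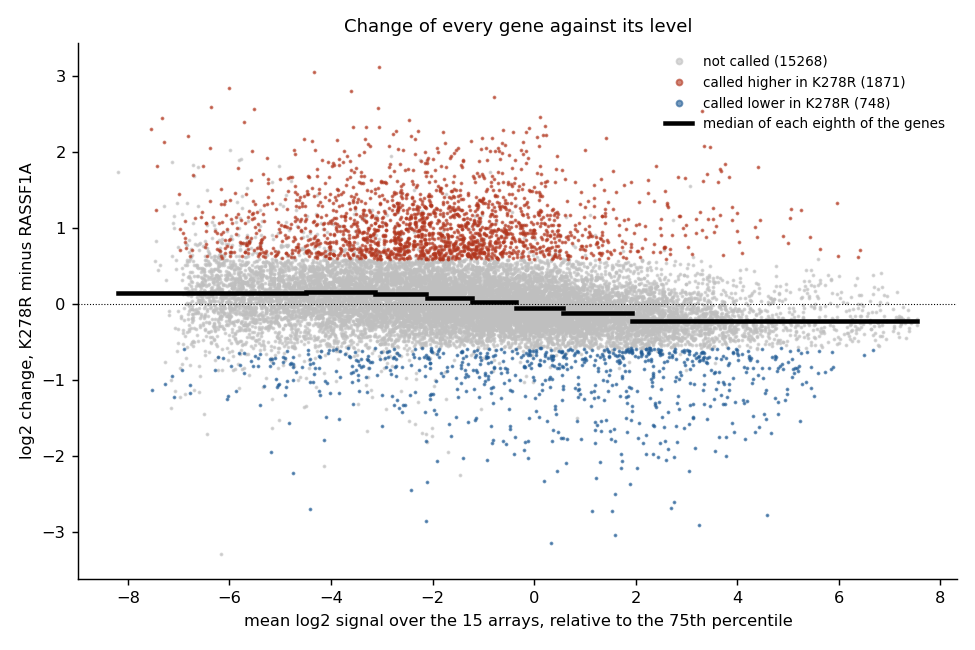
The log2 change between K278R and RASSF1A tumors (vertical) is plotted against the mean log2 signal over the 15 arrays (horizontal) for 17887 genes, 1 point per gene at its brightest probe. The black lines are the medians of the eighths of the genes by level, and they fall from 0.15 to -0.23 from left to right, while 1871 genes called higher and 748 called lower lie on both sides of them.

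The transfected genes were read first. MOAP1 had 1 probe, which stood at 0.44, 0.42, and 0.53 in K278R tumors 1 to 3 and at -0.48, -0.52, and -0.23 in RASSF1A tumors 1 to 3. The groups did not overlap, and MOAP1 was 1.83-fold higher in K278R (log2 change 0.87 ± 0.14 SE, limma adjusted p = 0.000819). Within the scan day the change was 0.69 (limma adjusted p = 0.0836). The mean MOAP1 level was 0.59 ± 0.21 (SD, n = 3) in wild type MOAP-1 tumors, 0.27 ± 0.18 in K264R tumors, and -0.28 ± 0.22 in vector tumors, so the K278R tumors lay with the other tumors that had received a MOAP-1 construct and the RASSF1A tumors with the vector tumors.

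RASSF1 also had 1 probe. It stood at 1.94, 1.73, and 1.68 in K278R tumors and at 1.56, 1.55, and 1.59 in RASSF1A tumors, against 1.72, 1.52, and 1.81 in vector tumors. The RASSF1A tumors were thus the lower group, and the change of 0.21 ± 0.10 (SE) was not called (limma adjusted p = 0.142). The probe gives no sign of the transfected RASSF1A in the tumors labeled with it, and whether it lies in the transfected stretch was not given, so directions are drawn here from the labels alone.

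In the route from death receptors to BAX, 4 of 19 genes were higher in K278R (21.1%, against 10.5% of all genes). In that list 1 gene was lower (5.26%, against 4.18%), and the median change was -0.11 against 0.00 over all genes. MOAP1 itself is 1 of the 4, and with array medians set to 0 the lower genes were 3. BAX, the pore-forming effector that MOAP-1 binds, stood at 1.53, 1.85, and 1.67 in K278R tumors and at 0.85, 1.15, and 0.81 in RASSF1A tumors. The ranges did not overlap, and BAX was 1.67-fold higher (change 0.74 ± 0.15 SE, limma adjusted p = 0.00231; 0.87 within the scan day, adjusted p = 0.0453). A second BAX probe changed by 0.08 ± 0.14 and was not called (limma adjusted p = 0.72). BAK1, the other effector, was higher by 0.92 ± 0.20 (limma adjusted p = 0.0038), and CASP8, the protease that death receptors activate, by 0.91 ± 0.21 (limma adjusted p = 0.00629). Against RASSF1A tumor 3 alone these changes were 0.54 and 0.74 (adjusted p = 0.257 and 0.212), and BAX was the 1 gene of the 19 called there. TRIM39, the ligase that stabilizes MOAP-1, was lower, at -0.64 (limma adjusted p = 0.0458), and its second probe, at -0.18, was not called. No gene of the list was called lower without K278R tumor 1, K278R tumor 3, RASSF1A tumor 1, or RASSF1A tumor 2. The receptor genes FAS and TNFRSF1A, at -0.16 and -0.15, were not called.

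Among the guardians and BH3-only members of the BCL2 family, 5 of 15 were higher (33.3%, against 10.5% of all genes). In the same list 1 was lower (6.67%, against 4.18%), and the median change was 0.10. With array medians set to 0, 3 were higher. MCL1, a short-lived guardian that holds BAX and BAK1 in check, stood at -0.56, -0.75, and -0.20 in K278R tumors and at -2.24, -2.94, and -1.99 in RASSF1A tumors. Every K278R tumor was above every RASSF1A tumor, and MCL1 was 3.69-fold higher (change 1.89 ± 0.28 SE, limma adjusted p = 0.000511; 1.49 within the scan day, adjusted p = 0.0473). The guardians BCL2 and BCL2L1 were higher by 0.76 ± 0.12 and 0.73 ± 0.12, and the BH3-only killer BMF by 1.09 ± 0.14 (limma adjusted p = 0.000709, 0.000954, and 0.000264). Second probes of BCL2 and BMF, at -0.16 ± 0.12 and 0.23 ± 0.18, were not called. BCL2L11, which encodes the BH3-only killer BIM, was lower, at -0.65 (limma adjusted p = 0.0153), but its further 2 probes gave 0.25 and -0.30, and the call was lost without K278R tumor 3, RASSF1A tumor 1, or RASSF1A tumor 2. Both guardians and killers stood among the higher genes, and within the scan day 2 of the 15, MCL1 and BMF, were called higher and 0 lower by limma. Of the apoptosome and caspase list, 2 of 15 were higher and 1 lower, and 0 were called by limma within the scan day. These shares, 13.3% and 6.67%, were near the 10.5% and 4.18% of all genes. The higher ones were HTRA2, a protease freed from mitochondria, and CASP6, an effector caspase, at 0.93 and 0.83. DFFA, the inhibitor of the apoptotic nuclease, was lower at -0.73.

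Of the proteasome subunits, 10 of 38 were higher (26.3%, against 10.5% of all genes) and 0 were lower by limma, or 1 lower with array medians set to 0. The median over the 38 was 0.01, and 28 subunits were not called. PSMC5, an ATPase of the regulatory particle that unfolds substrates, stood at 0.78, 0.92, and 0.85 in K278R tumors and at -2.37, -1.83, and -0.62 in RASSF1A tumors. RASSF1A tumor 3 lay between the other RASSF1A tumors and the K278R tumors, and the change was 2.46 ± 0.36 (SE, limma adjusted p = 0.000452; 1.47 within the scan day, adjusted p = 0.0426). PSMC3, a further ATPase of that ring, and PSMD13, a subunit of the lid of that particle, changed by 2.22 ± 0.42 and 2.26 ± 0.36 (1.05 and 1.22 within the scan day, adjusted p = 0.0671 and 0.0637). PSMB5 and PSMB9, catalytic subunits of the core, changed by 1.29 and 1.39. Within the scan day only 1 of the 10, PSMC5, was called, and with the scan day as a block 3 subunits were.

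In glycolysis and pyruvate metabolism, 6 of 25 genes were higher (24%, against 10.5% of all genes) and 1 was lower (4%, against 4.18%). The median change was -0.08. The groups were apart in 7 of the 25 genes in each direction, where over all genes 21.4% lay above and 18.4% below. With array medians set to 0, 5 were higher and 2 lower. ENO1, the main enolase, stood at 3.92, 3.94, and 3.92 in K278R tumors and at 0.86, 1.75, and 2.95 in RASSF1A tumors. The K278R tumors lay within 0.02 of each other while the RASSF1A tumors spread over 2 log2 units, and the change was 2.07 ± 0.37 (SE, limma adjusted p = 0.00144), or 0.97 within the scan day (adjusted p = 0.0621). ENO2, the neuronal enolase, was higher by 2.09 ± 0.31, GAPDH by 1.33 ± 0.28, PKM, which makes pyruvate, by 1.27, HK1, which traps glucose in the cell, by 1.03, and LDHA by 0.66. On the shared scan day ENO2 was at 1.42 (adjusted p = 0.0483) and GAPDH at 0.55 (adjusted p = 0.27), and ENO2 was the 1 gene of the list called higher and PFKL the 1 called lower. The lower gene was PFKL, the liver type subunit of the committed step of the pathway, at 2.64, 2.71, and 2.35 in K278R tumors and 4.92, 4.93, and 4.48 in RASSF1A tumors. All 3 K278R tumors were below the RASSF1A tumors, by 4.61-fold (change -2.20 ± 0.31 SE, limma adjusted p = 0.000364; -1.91 within the scan day, adjusted p = 0.0458). The hypoxia list shares ENO1 and LDHA with this one. With NDRG1, DDIT4, and PFKFB4 it had 5 of 26 higher under the main scaling (19.2%, against 10.5% of all genes). By limma 0 were lower (against 4.18%), and the median was 0.19, or 0.21 within the scan day. With array medians set to 0, 4 were higher, and in a fit of only the 6 arrays 2 were.

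Under the main scaling, ribosomal and respiratory genes held a few large rises beside many small shifts downward. The downward shift depended on the scaling. Quantile normalization gave medians of 0.02 for cytosolic ribosomal, -0.05 for mitochondrial ribosomal, and -0.10 for respiratory genes, against -0.04 over all genes. Of 81 cytosolic ribosomal protein genes, 8 were higher (9.88%, against 10.5% of all genes) and 0 lower by limma, with a median of -0.20, and in 25 all K278R tumors lay below all RASSF1A tumors. With array medians set to 0 these were 6 and 3. RPS3, of the small subunit, stood at 4.01, 3.92, and 4.06 in K278R tumors and 0.77, 0.92, and 2.72 in RASSF1A tumors. RASSF1A tumor 3 was again the nearest to K278R, and the change was 2.53 ± 0.43 (SE, limma adjusted p = 0.00103; 1.28 within the scan day, adjusted p = 0.0959). RPL29, of the large subunit, was higher by 1.12. Mitochondrial ribosomal proteins had 12 of 76 higher (15.8%) and 1 lower (1.32%), against 10.5% and 4.18% of all genes. With array medians set to 0 these were 11 and 14. There were 6 lower without K278R tumor 2 or RASSF1A tumor 3 and 4 without RASSF1A tumor 1. The respiratory chain and ATP synthase had 9 of 75 higher (12%) and 3 lower (4%), near the shares of all genes, with a median of -0.32. With array medians set to 0 these were 6 and 19, and without K278R tumor 2 there were 11 lower. The K278R tumors lay below all RASSF1A tumors in 37 of these 75 genes and in 26 of the 76 mitochondrial ribosomal ones, whose median was -0.13, against 18.4% of all genes. Within the scan day 1 respiratory gene was lower and 0 others of these 3 lists were called by limma. NDUFA9, a subunit of complex I, stood at 0.66, 0.53, and 0.88 in K278R tumors and -1.86, -2.21, and -0.53 in RASSF1A tumors. Its change was 2.22 ± 0.39 (SE, limma adjusted p = 0.00115), or 1.22 within the scan day (adjusted p = 0.115), while NDUFB7, an accessory subunit of the same complex, changed by -1.06 (limma adjusted p = 0.000396).

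**Figure D2:**
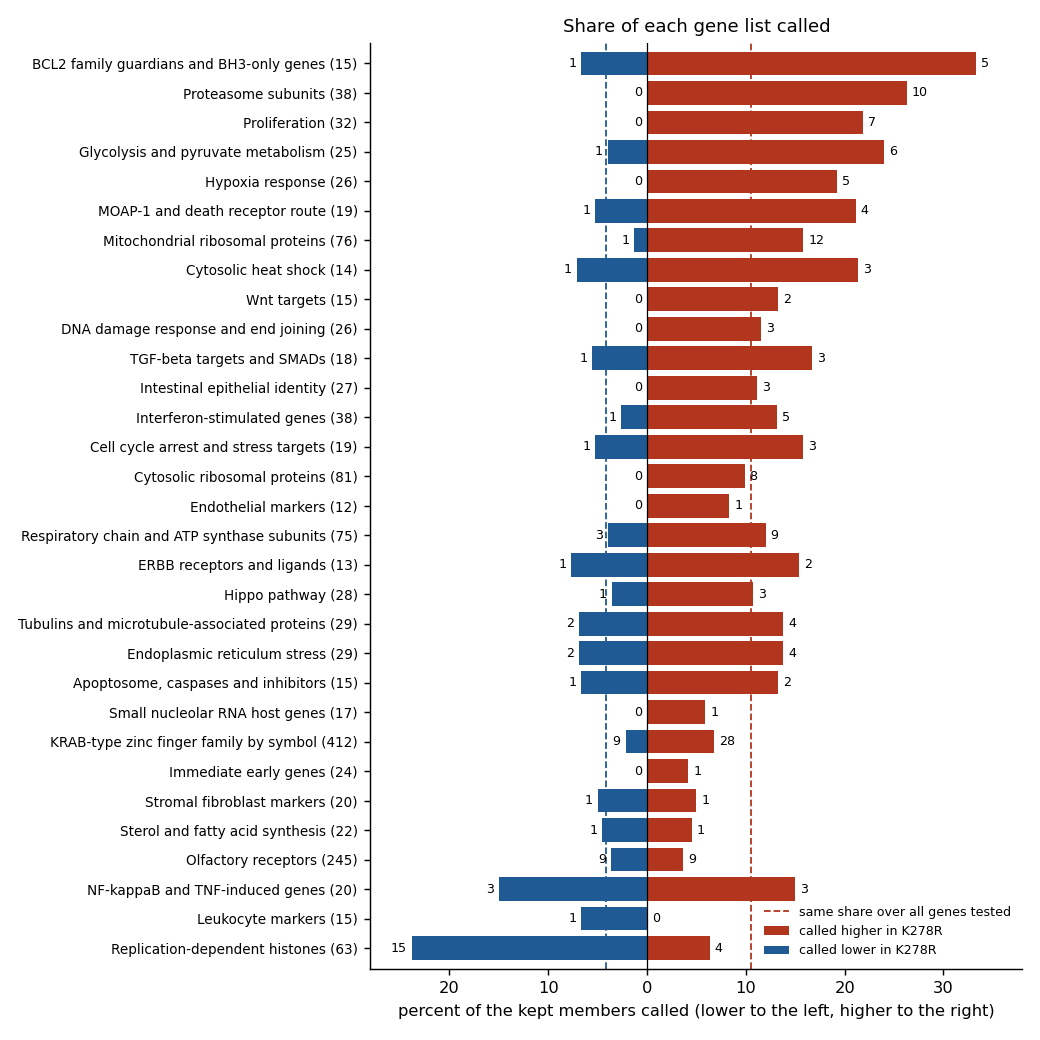
Bars give the percent of the kept members of each gene list called higher (right) or lower (left) in K278R against RASSF1A tumors, for lists with at least 12 kept members (number kept in brackets, number called at the bar ends). The dashed lines are the shares over all genes, 10.5% higher and 4.18% lower, and replication-dependent histones, with 15 of 63 lower, reach farthest to the left while the BCL2 family and the proteasome reach farthest to the right.

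Replication-dependent histone genes code for the nucleosome proteins made in S phase, and their messages end in a stem-loop in place of a poly(A) tail. Of 63 kept members, 15 were lower (23.8%, against 4.18% of all genes) and 4 were higher, with a median change of -0.39. The classes differed in their counts. All 14 histone H4 genes had a change below 0, with a median of -0.90, and 8 of them were called. Of the 49 genes of the H1, H2A, H2B, and H3 classes, 7 were lower and 4 higher, with a median of -0.28. With array medians set to 0, 9 H4 genes and 12 of the others were lower, and quantile normalization gave 8 and 7. The H4 genes encode the same protein from near-identical copies, and probe sequences were not used here, so a probe may read more than 1 copy and the 14 values are not independent.

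H4C12 stood at 0.59, 0.76, and 0.43 in K278R tumors and at 2.35, 2.81, and 2.86 in RASSF1A tumors. The groups were apart by more than 1.5 log2 units, and H4C12 was 4.23-fold lower in K278R (change -2.08 ± 0.16 SE, limma adjusted p = 0.000197; -2.27 within the scan day, adjusted p = 0.000242). A second H4C12 probe was also lower, at -0.95 ± 0.30 (limma adjusted p = 0.0309). H4C3, the brightest H4 gene, stood at 4.74, 5.09, and 4.61 in K278R tumors and at 5.47, 5.95, and 5.60 in RASSF1A tumors, with a change of -0.86 ± 0.14 (SE, limma adjusted p = 0.000961). The H3 gene H3C15 and the H2B gene H2BC15 were lower, at -1.67 ± 0.31 and -1.35 ± 0.17, whereas H2BC6 and H3C11 were higher by 0.82 ± 0.24 and 0.70 ± 0.18. Within the scan day 7 of the 14 H4 genes were called lower, against 1 of the other 49, and with the scan day as a block 3 of the 14 were, against 1 of the 49. K278R tumor 2 was the highest K278R tumor at 54 of the 63 histone genes, as at H3C15, where the K278R tumors stood at 0.45, 1.75, and 0.19. Without it, 30 of the 63 histone genes were lower and 1 higher, with 13 of the 14 H4 genes among the lower. The 4 higher genes became 0 without RASSF1A tumor 1 and 1 without RASSF1A tumor 2.

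**Figure D3:**
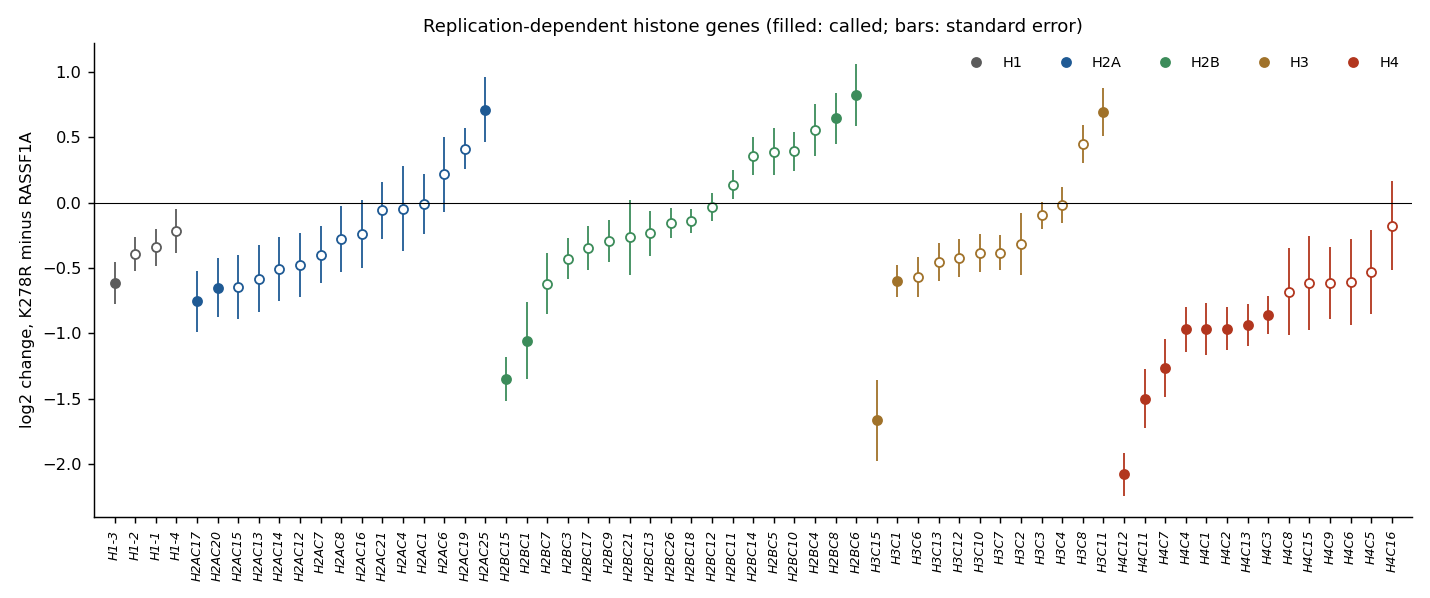
Each point is the log2 change of 1 of 63 replication-dependent histone genes between K278R and RASSF1A tumors (vertical), ordered by class and change along the horizontal axis, with bars of 1 standard error from limma and filled points for called genes. All 14 H4 genes lie below 0 and 8 of them are filled, while the H2A, H2B, and H3 classes lie on both sides of 0.

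The promoters of the H4 genes called lower are shown because these genes moved together, for the 6 of the 8 that have a RefSeq promoter. The 120 bases before the start of transcription are given 5′ to 3′ from RefSeq (GRCh38.p14), with capitals for TATAAA, the box that places the polymerase, and for GGTCCG, the core of an element conserved in H4 promoters, both searched on either strand. H4C12 lies at chr6:27831561-27831680, minus strand, H4C11 at chr6:27823972-27824091, plus strand, H4C7 at chr6:26246997-26247116, minus strand, H4C4 at chr6:26189113-26189232, minus strand, H4C2 at chr6:26027284-26027403, minus strand, and H4C13 at chr6:27873535-27873654, minus strand.
H4C12: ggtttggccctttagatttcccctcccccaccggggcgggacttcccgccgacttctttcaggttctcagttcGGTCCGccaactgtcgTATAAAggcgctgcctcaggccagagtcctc
H4C11: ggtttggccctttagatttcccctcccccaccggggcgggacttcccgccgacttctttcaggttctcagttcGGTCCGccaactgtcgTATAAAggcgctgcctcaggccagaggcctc
H4C7: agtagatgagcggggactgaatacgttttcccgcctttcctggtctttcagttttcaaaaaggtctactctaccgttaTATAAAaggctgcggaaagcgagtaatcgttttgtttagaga
H4C4: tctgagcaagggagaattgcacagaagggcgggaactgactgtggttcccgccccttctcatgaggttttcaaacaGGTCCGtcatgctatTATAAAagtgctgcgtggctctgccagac
H4C2: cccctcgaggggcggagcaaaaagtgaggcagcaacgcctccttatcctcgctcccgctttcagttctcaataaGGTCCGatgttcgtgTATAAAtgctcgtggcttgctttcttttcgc
H4C13: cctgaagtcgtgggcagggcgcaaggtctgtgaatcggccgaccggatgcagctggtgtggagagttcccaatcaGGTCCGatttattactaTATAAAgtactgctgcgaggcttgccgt
The stretches of H4C12 and H4C11 are near-identical, so these promoters are not independent examples. RefSeq promoters were at hand for 12 of the 14 H4 genes. Within 250 bases before the start, GGTCCG was present in 5 of 6 promoters of H4 genes called lower (not in that of H4C7) and in 6 of 6 of the H4 genes not called lower, against 3 of 50 promoters of the other histone classes and 9.43% of all 35116 promoters. TATAAA was present in 6 of 6 promoters of the H4 genes called lower and in 1 of 6 of those not called lower, against 35 of 50 promoters of the other histone classes (70%) and 10.7% of all promoters. These are matches of letters, and binding was not measured. The split into called and not called also rested on K278R tumor 2, without which 13 of the 14 H4 genes were called lower. With all tumors, H4C6, H4C8, H4C9, and H4C15 were not called but changed by -0.61, -0.68, -0.62, and -0.62.

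Small noncoding RNAs were lower as well, a class that was singled out after its values were seen. Of 38 genes for structural RNAs (small nuclear, nucleolar, and Cajal body RNAs, the RNAs of ribonuclease P and MRP, telomerase, and the signal recognition particle, and 3 ribosomal RNAs), 15 were lower (39.5%, against 4.18% of all genes) and 0 were higher by limma, with a median of -0.43. SNORD3B-1, a copy of the U3 RNA that guides the first cuts of ribosomal RNA, stood at 3.62, 3.80, and 3.11 in K278R tumors and 5.92, 6.64, and 6.31 in RASSF1A tumors. The groups were far apart, and the change was -2.78 ± 0.33 (SE, limma adjusted p = 0.000253; -2.81 within the scan day, adjusted p = 0.0242). RPPH1, the RNA of ribonuclease P, changed by -1.40 ± 0.20, RNU12, of the minor spliceosome, by -1.16 ± 0.16, and TERC, the telomerase template, by -0.69 ± 0.13, with no overlap of the groups. RN7SK, which restrains the elongation factor P-TEFb, changed by -1.03 ± 0.26, and K278R tumor 2 overlapped RASSF1A tumor 1 there. Of the 38, 5 were called lower within the scan day. Most of these RNAs, like the histone messages, carry no poly(A) tail, and the part of RNA preparation in these values was not tested.

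Proliferation genes, which mark dividing cells, were read beside the histones. Of 32, 7 were higher (21.9%, against 10.5% of all genes) and 0 were lower by limma under the main scaling, with a median of -0.02. With array medians set to 0, 5 were higher and 2 lower. AURKB, the mitotic kinase of the chromosomal passenger complex, was higher by 1.35 ± 0.24 (0.82 within the scan day). RRM2, which makes deoxynucleotides for S phase, was higher by 1.14 ± 0.20. KIF20A and TOP2A, of cytokinesis and DNA untangling, were higher by 0.85 ± 0.17 and 0.83 ± 0.26. TOP2A was highest in K278R tumor 3, at -0.74, against -1.94 and -2.09 in K278R tumors 1 and 2. The RASSF1A tumors stood at -2.24, -2.67, and -2.35 for TOP2A. Of the 32, 0 were called by limma within the scan day, where RRM2 stood at 1.05 with adjusted p = 0.0647. In the DNA repair list 3 of 26 were higher, near the 10.5% of all genes, with 0 called by limma within the scan day, namely PARP3, NHEJ1, and PRKDC at 1.82, 1.02, and 1.01. PRKDC was also highest in K278R tumor 3, at 0.68, against -0.66 and -0.93 in K278R tumors 1 and 2. The RASSF1A tumors stood at -1.35, -1.44, and -1.14 for PRKDC. Only 2 genes of the DNA repair list were higher without K278R tumor 3, RASSF1A tumor 1, or RASSF1A tumor 2. Without K278R tumor 2, 2 genes of this list and 2 proliferation genes were lower. Of the cell cycle arrest and stress targets 3 of 19 were higher and 1 lower, and 0 were called by limma within the scan day. CDKN1A, the cyclin kinase inhibitor p21, and ZMAT3 were higher by 0.83 and 1.78, and MDM2 was lower at -0.97 at its brightest probe, while its further 2 probes gave 0.20 and 0.06.

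The pathways around both constructs moved in a few members. In the Hippo list 3 of 28 were higher and 1 lower, near the shares of all genes, and 0 were called by limma within the scan day. AMOTL1, a scaffold that holds YAP1 at junctions, and the family relatives RASSF7 and RASSF4 were higher by 1.11, 0.98, and 0.81, and a second AMOTL1 probe stood at -0.13 ± 0.15. MOB1B, the cofactor of the LATS kinases, was lower at -1.55, with its further 2 probes at 0.03 and -0.37. Of the tubulins and microtubule-associated proteins, 4 of 29 were higher (13.8%, against 10.5% of all genes) and 2 lower (6.9%, against 4.18%). There were 4 lower without K278R tumor 2 and 1 lower without K278R tumor 3 or RASSF1A tumor 1. Against RASSF1A tumor 3 alone 2 were higher and 1 lower. MAP1S, a microtubule-binding partner of RASSF1A, stood at 3.85, 3.78, and 3.67 in K278R tumors and at 5.17, 5.07, and 4.87 in RASSF1A tumors. The groups did not overlap, and MAP1S was 2.41-fold lower (change -1.27 ± 0.17 SE, limma adjusted p = 0.000325; -1.10 within the scan day, adjusted p = 0.041). TUBG2, a γ-tubulin, and MAP1B were higher by 1.20 and 1.06, and a second MAP1B probe stood at 0.19 ± 0.21.

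Most of the stress and signaling lists were small, so their called members are given as single genes. Over all genes 10.5% were higher and 4.18% lower. The shares higher and lower were 21.4% and 7.14% for cytosolic heat shock genes and 13.8% and 6.9% for endoplasmic reticulum stress genes. For NF-κB genes they were 15% each. Of the cytosolic heat shock genes 3 of 14 were higher and 1 lower. The chaperones HSP90AB1 and HSPA8 rose by 2.06 ± 0.32 and 1.75 ± 0.25, and their cofactor BAG3 by 1.27 ± 0.24. On the shared scan day these were 1.24, 1.15, and 0.66 (adjusted p = 0.0755, 0.0561, and 0.186), and 0 of the 14 were called by limma. Of the endoplasmic reticulum stress genes 4 of 29 were higher and 2 lower (2 and 1 within the scan day), with the disulfide isomerase PDIA6 at 1.85, the stress factor DDIT3 at 1.60, and CRELD2, a secreted chaperone, at -1.15. NF-κB genes had 3 of 20 in each direction, and 2 higher and 0 lower by limma within the scan day. The subunits RELA and REL were at 1.19 and 0.95, with a second RELA probe at 1.20 ± 0.16. The chemokine CXCL2 was at -0.98, with a second probe at 0.30 ± 0.26 that was not called.

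Interferon-stimulated genes had 5 of 38 higher and 1 lower, and 1 higher within the scan day. HERC6 and IFIT3 were at 2.57 and 1.90, and IFIT3 was at 0.77 within the scan day (limma adjusted p = 0.372). Of the Wnt targets, 2 of 15 were higher, CCND1 (cyclin D1) at 1.35 and SOX9 at 0.70, with 1 higher without K278R tumor 3 or RASSF1A tumor 2 and 0 called by limma within the scan day. ERBB genes had 2 of 13 higher, the adaptor GRB2 at 1.32 and the ligand HBEGF at 1.23, and the receptor ERBB4 lower at -0.71, with 1 higher within the scan day and 2 lower without K278R tumor 1. TGF-β genes had 3 of 18 higher, with the ligand TGFB1 at 1.01, and 1 lower, the decoy receptor BAMBI at -0.65. Only 1 was higher without K278R tumor 3 or any 1 of the RASSF1A tumors, 0 were lower without K278R tumor 2 or RASSF1A tumor 1, and 0 were called by limma within the scan day. Immediate early genes had 1 of 24 higher, SRF itself, with 2 higher without RASSF1A tumor 1 and 3 without RASSF1A tumor 3. Sterol synthesis had MSMO1 higher at 1.03, of 22 genes, and 2 higher without K278R tumor 1. Of 9 metallothioneins 0 were called by limma, with a median of -0.34, and 2 were lower without K278R tumor 2. Small nucleolar RNA host genes had 1 of 17 called, SNHG11, and 0 by limma without K278R tumor 1 or 3 or RASSF1A tumor 1 or 2. Olfactory receptors, the odor sensors of the nose, had 9 of 245 higher and 9 lower (3.67% each), and 15 lower without RASSF1A tumor 3. The ZNF family had 28 of 412 higher and 9 lower, and 14 lower without K278R tumor 2. With array medians set to 0, the lower genes became 3 for ERBB, 4 for sterol synthesis, 21 for olfactory receptors, and 22 for the ZNF family, and 1 TGF-β gene was higher. The shares higher and lower were 13.2% and 2.63% for interferon-stimulated genes and 13.3% and 0% for Wnt targets. They were 15.4% and 7.69% for ERBB, 16.7% and 5.56% for TGF-β, and 4.17% and 0% for immediate early genes. Sterol synthesis had 4.55% each, small nucleolar RNA host genes 5.88% and 0%, and the ZNF family 6.8% and 2.18%.

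The 12 largest rises spanned several functions. SRF, the factor that drives immediate early and actin genes, stood at -2.26, -2.27, and -2.07 in K278R tumors and at -5.89, -5.90, and -4.16 in RASSF1A tumors. It was 8.64-fold higher with no overlap, although RASSF1A tumor 3 lay well above the other RASSF1A tumors (change 3.11 ± 0.43 SE, limma adjusted p = 0.00037; 1.96 within the scan day, adjusted p = 0.044). YARS1, which charges the tyrosine tRNA, and IST1, of the ESCRT membrane scission machinery, also had RASSF1A tumor 3 as the RASSF1A tumor nearest to K278R, and were higher by 2.41 ± 0.33 and 2.33 ± 0.22 (1.56 and 1.96 within the scan day, adjusted p = 0.0418 and 0.0143). HERC6, of the family of interferon-induced ligases, had RASSF1A tumors that lay close together, at -4.94, -5.05, and -4.65 against -2.60, -2.66, and -1.66 in K278R tumors. Its change was 2.57 ± 0.34 at the brightest probe (SE, limma adjusted p = 0.000331) and 0.66 ± 0.33 at a second probe (adjusted p = 0.147). Within the scan day the change of HERC6 at the brightest probe was 2.34. ARAP1, a regulator of small GTPases of the Arf family, rested on RASSF1A tumor 3 in the other direction: it stood at -0.27, -0.24, and -3.57 in RASSF1A tumors and 0.77, 1.41, and 0.75 in K278R tumors. The change was 2.34 ± 0.63 over the 3 RASSF1A tumors, 4.54 against tumor 3, and 0.32 ± 0.23 at a second probe that was not called. The others were LDHAL6B, a lactate dehydrogenase relative, at 3.04, the scavenger receptor STAB1 at 2.80, FAM219B at 2.32, and DKFZP586I1420 at 2.32, beside RPS3 and PSMC5.

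The 12 largest falls held genes of varied function. GUCY2C, the intestinal receptor for guanylin, stood at -4.61, -6.01, and -5.02 in K278R tumors and -2.35, -3.13, and -2.07 in RASSF1A tumors. It was dim in both groups without overlap, and lower, at -2.70 ± 0.55 (SE, limma adjusted p = 0.00271; -3.15 within the scan day, adjusted p = 0.0537). EBF2, a transcription factor of brown fat, changed by -2.86 ± 0.38, and MAMSTR, a coactivator of MEF2, by -2.72 ± 0.31, and in both all RASSF1A tumors lay close together, with within-day changes of -3.06 and -2.57 (adjusted p = 0.0294 and 0.0273). NCF1, a subunit of the phagocyte oxidase, fell most, from 3.49, 3.15, and 1.74 in RASSF1A tumors to -0.48, 0.10, and -0.69 in K278R tumors. Its change was -3.15 ± 0.47 (SE, limma adjusted p = 0.000516) at the brightest probe but 0.09, -0.23, and -0.83 at its further 3 probes. Within the scan day the change of NCF1 at the brightest probe was -2.09. NUB1, which targets NEDD8 conjugates for degradation, changed by -3.05, TM9SF1, a membrane protein of endosomes, by -2.37, DNAJC5B by -2.45, and DCANP1, MROH5, and FAM222B by -2.73, -2.69, and -2.61. Further probes of MAMSTR and FAM222B changed by 0.06 and 0.04.

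**Figure D4:**
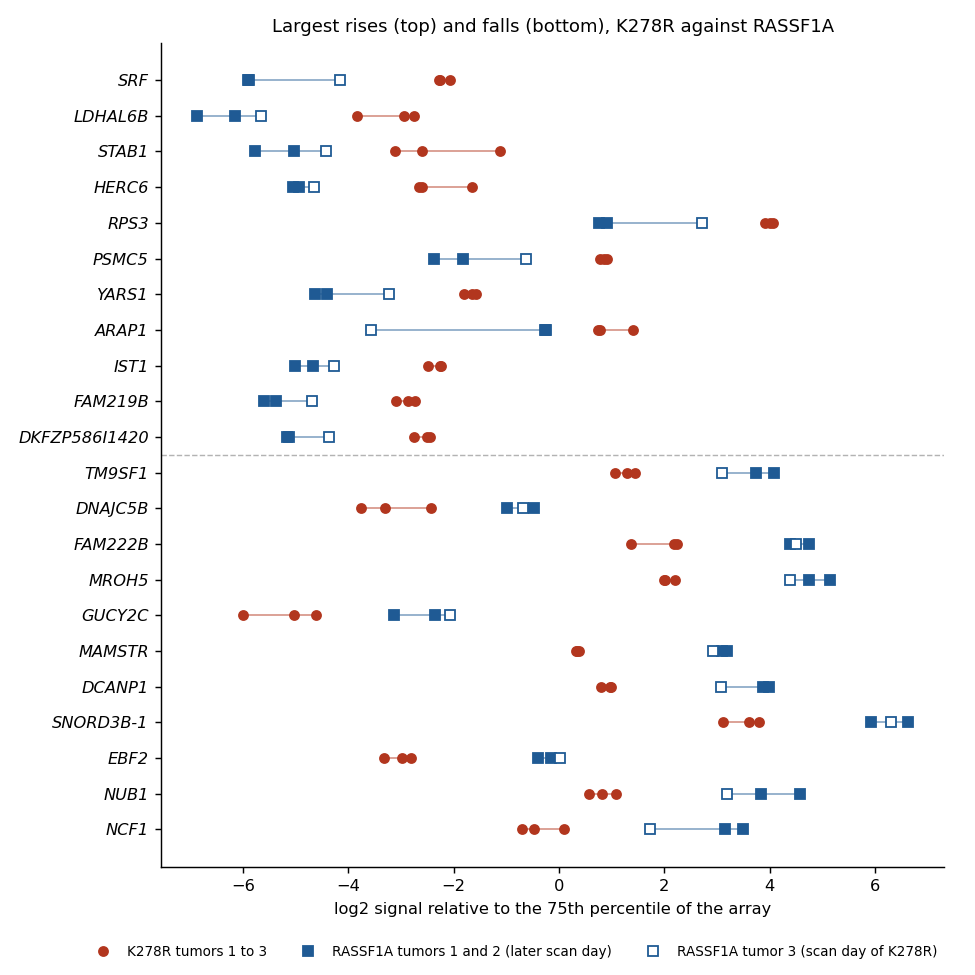
Each symbol is the log2 signal of 1 tumor relative to the 75th percentile of its array (horizontal) for 22 of the 24 genes with the largest rise or fall (vertical), with circles for K278R tumors, filled squares for RASSF1A tumors 1 and 2, and open squares for RASSF1A tumor 3. The groups do not overlap, as the rule for naming them required, and the open squares lie between the filled squares and the circles for most rises, ARAP1 being the exception with tumor 3 lowest at -3.57.

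For 13 of the called genes the brightest probe was not well above background on any RASSF1A array, and for 0 on any K278R array. These 13 genes passed the filter only through the K278R tumors, where they are high, so their p values are not given. The fold stated for them is a lower bound under the main background correction. PALM2AKAP2, an anchor of protein kinase A, was at least 2.68-fold higher in K278R, and HAL, CIBAR2, TAS2R45, and ZCCHC12 at least 2.48-, 2.33-, 1.99-, and 1.87-fold. HAL, the enzyme that breaks down histidine, rested on K278R tumor 2, at -4.07 against -6.83 and -6.58 in the others. Under the normexp background model the measured changes of HAL and ZCCHC12 turned to -0.029 and -0.037.

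A gene with several probes can be read more than once. Of the 2619 called genes, 515 had a further kept probe, 614 probes in all. For genes called higher, 251 of 325 further probes (77.2%) changed in the same direction, by 0.39 in the median, and 126 were called in it. For genes called lower, 141 of 289 (48.8%) did, with a median of -0.0048 toward the call, and 26 were called lower like their gene while 32 were called higher. COL5A1, a fibrillar collagen, was lower on its brightest probe, at -1.98 ± 0.30, and stood at 1.99 ± 0.78 on the other, which was not called (limma adjusted p = 0.0727). Over all 5131 further probes of any gene, 19.2% were higher and 2.65% lower. Histone genes differed, in that all 5 further probes of their called members changed the same way and 3 were called. The 8 further probes of the called cytosolic ribosomal protein genes had 7 in the same direction and 5 called, such as RPL29, with 4 probes between 1.12 and 1.73. KRT8 and KRT18, a keratin pair of simple epithelium, had brightest probes at -0.20 ± 0.12 and 0.14 ± 0.14 that were not called and second probes at 1.61 ± 0.28 and 1.49 ± 0.30 that were (limma adjusted p = 0.00116 and 0.00249).

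**Figure D5:**
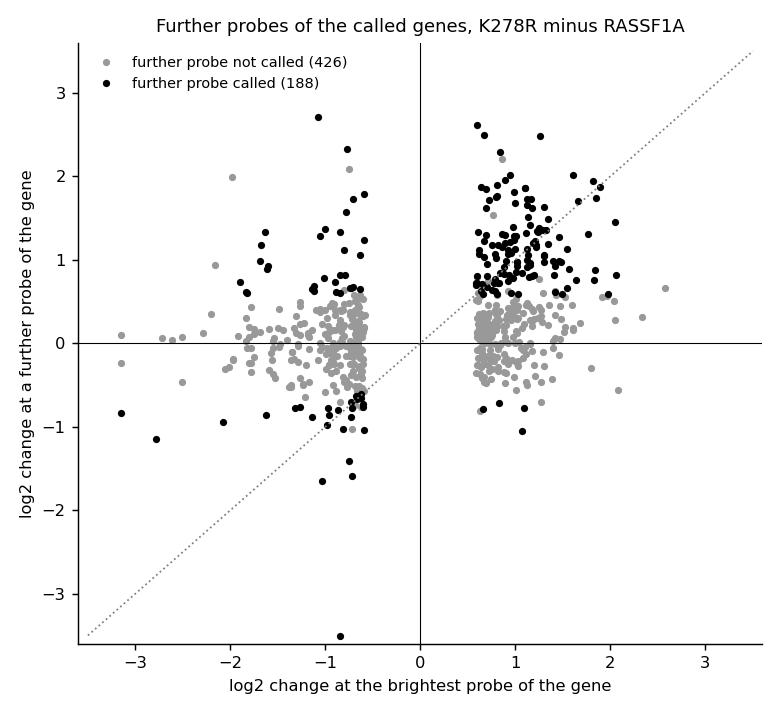
Each of 614 points is a further probe of a called gene, with the log2 change at the gene's brightest probe (horizontal) and at the further probe (vertical), in black where the further probe was called, and the dotted line marks equal change. To the right, 251 of 325 points lie above 0, and to the left 141 of 289 lie below 0.

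The epithelial markers were as the label of a colon cancer line has it. All 8 (EPCAM, CDH1, KRT8, KRT18, KRT19, VIL1, CLDN4, and CLDN7) passed the background flag on all 6 arrays, and their summed linear level, relative to the 75th percentile, was 217.2 to 325.3 in K278R tumors and 276.1 to 317.5 in RASSF1A tumors. CLDN7, a tight junction protein, was the 1 called, higher by 0.85 ± 0.20 (0.40 within the scan day, adjusted p = 0.312). In the wider intestinal list ELF3, an epithelial transcription factor, was higher by 1.96 ± 0.31 and the surface antigen CEACAM5 by 0.67 ± 0.11. That list had 3 of 27 higher (11.1%, near the 10.5% of all genes) and 0 lower by limma. It had 1 lower with array medians set to 0 or without K278R tumor 2, RASSF1A tumor 2, or RASSF1A tumor 3. On the shared scan day 1 was higher.

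Fibroblast markers varied among the K278R tumors. Their summed level over 9 genes was 10.96 to 41.6 in K278R tumors and 8.06 to 11.45 in RASSF1A tumors, 7 were above background on all 6 arrays, and LUM on none. COL1A1, the main fibrillar collagen, stood at 3.27, 4.89, and 2.81 in K278R tumors and 2.90, 2.49, and 2.27 in RASSF1A tumors. K278R tumor 2 was the high one, and the change of 1.10 ± 0.76 (SE) was not called (limma adjusted p = 0.298). In the wider stromal list COL6A2 was higher and COL5A1 lower of 20, with a median of 0.57. Endothelial markers summed to 2.39 to 2.82 in K278R tumors and 2.44 to 2.80 in RASSF1A tumors with 0 of 6 called by limma, and 1 of 12 genes in the wider list was called. That gene, TIE1, stood at -5.22, -4.17, and -4.27 in K278R tumors and -7.95, -6.64, and -6.22 in RASSF1A tumors, with tumor 1 not well above background, and the call was lost without K278R tumor 2, K278R tumor 3, or RASSF1A tumor 1, and under the normexp background model. Leukocyte markers summed to 9.35 to 9.68 and 8.37 to 13.3 with 0 of 6 called by limma, and TYROBP, a myeloid adaptor, was the 1 of 15 in the wider list, lower at -1.81 (-1.69 within the scan day, adjusted p = 0.0338). Erythroid markers summed to 12.2 to 13.6 and 15.6 to 20.6 in K278R and RASSF1A tumors. The arrays carry human probes, so what the mouse cells add to these signals, and the part of host cells in the changes, was not tested.

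The same genes were read in the other constructs, which share arrays with this comparison. Against vector tumors, 1170 genes were higher in K278R (6.54%) and 536 lower (3%). Between RASSF1A and vector tumors 0 genes were called by limma, where 2183 had an unadjusted p below 0.05 and the unpaired test of the methods left 0 after adjustment. Between K278R and wild type MOAP-1 tumors 0 were called by limma, where 1650 had an unadjusted p below 0.05 and the test of the methods again left 0, and between K278R and K264R tumors 52 were higher (0.291%) and 50 lower (0.28%). SRF had a mean of -2.20 ± 0.11 (SD, n = 3) in K278R, -1.75 ± 0.11 in wild type MOAP-1, -1.97 ± 0.11 in K264R, -4.04 ± 0.89 in vector, and -5.31 ± 1.00 in RASSF1A tumors. H4C12 had 0.59 ± 0.17, 0.71 ± 0.16, -0.25 ± 0.15, 2.70 ± 0.24, and 2.67 ± 0.28 in the same order. For SRF the 3 MOAP-1 constructs lay within 0.5 of each other and the vector tumors between them and RASSF1A, whereas for H4C12 the RASSF1A and vector tumors were at the same level and K264R lay below K278R. Across the 15 arrays the first principal component, with 49.9% of the variance, separated the RASSF1A and vector tumors from all tumors with a MOAP-1 construct. These 2 sets of tumors shared no slide, so slide and construct cannot be told apart in that separation or between K278R and vector tumors. Wild type MOAP-1 tumor 2 was on the slide of the K278R tumors, and RASSF1A tumor 3 on that of the vector tumors.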

How the data were processed

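Tumor RNA was amplified, labeled with Cy3, and hybridized to Agilent 4x44K arrays. Per the file headers and labels, the authors extracted each spot's intensity with Agilent Feature Extraction (10.5.1.1 in the headers, 9.1 in the labels), background-corrected and not normalized between arrays, and deposited a log2 table from GeneSpring, scaled to the 75th percentile and centered by probe. Its K278R and RASSF1A columns follow arrays of the same construct but partly of another number, so it served only as an alternative. From the intensities, control spots and outlier spots were left out, log2 values were set to the 75th percentile, spots of a probe were averaged, and probes well above background in all 3 tumors of either group were kept (30279; 110 lacked a value on some array). Names came from RefSeq (GRCh38.p14) through probe accessions (25422 of 34127 probes, 74.5%).

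All 15 arrays were fitted in limma 3.58.1 (R 4.3.3) with construct as the only term (10 residual degrees of freedom), with Benjamini-Hochberg adjustment over the kept probes, and every adjusted p is from that fit unless said otherwise. It was tested on simulated data. Called means adjusted p below 0.05 and at least 1.5-fold. Named are MOAP1 and RASSF1, the 12 largest rises and falls among called, non-overlapping genes above background in all 6 tumors (no LOC symbols or readthroughs), the 5 largest bounds, the 4 largest called changes of each of 33 lists, and the cell type markers. Other genes were named after their values were seen. The comparison, its lists, and its tests were chosen with earlier results of these data known. Alternatives covered scaling, background correction, filters, the deposited log2 table, array weights, scan day, slide, replicate number, the arrays fitted, thresholds, the methods' t-test, and each tumor left out. Precision is limited by the 3 tumors in each group. Some results, 2 of the 24 largest changes among them, are not reported here.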

Additional observations from a re-analysis of the deposited data

How the results depend on the processing

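The 2619 calls (1871 higher, 748 lower) kept within 1.5 times under quantile normalization, both other filters and no filter, the deposited log2 table, array weights, the slide as a random block, a fit of only the 6 arrays, the unadjusted thresholds, and any probe of a gene, except for the lower genes with array medians set to 0 (1510). Leaving out 1 tumor at a time gave 2223 to 3114 calls, with 1581 to 2160 higher and 642 to 954 lower. The normexp background model gave 826 (466 higher, 360 lower), and 1672 (1081 higher) with spots of extreme local background left out. The scan day as a block gave 642 (335 and 307) and the scan day alone 512 (265 and 247), from 1 RASSF1A tumor on that day. The methods' t-test gave 280 after adjustment (65 and 215) and 2346 without it. An adjusted p with no fold threshold gave 5139 (2876 and 2263). The causes were not tested.

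HAL and ZCCHC12 reversed under both normexp settings, to -0.029 and -0.037. Of 145 called genes among those named, the histones, and the small nucleolar RNAs, 45 were called within the scan day, and 5 to 16 were lost when 1 tumor was left out. Deviations from the group mean correlated at 0.23, 0.23, and -0.02 between equal replicate numbers and at -0.29 to 0.17 between unequal ones. With 3 tumors a group, these values cannot decide whether the replicate numbers pair the samples. A replicate block over the 6 arrays gave 2124 calls (1464 and 660). With 3 tumors a group, and slide never shared between groups, small changes and changes of slide cannot be resolved here.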
